A study of Mus musculus with 17 samples.

Results

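The genes described here encode 9 components that cleave NOTCH receptors or carry their signal in the nucleus: Adam10, Psen2, Aph1a, Ncstn, Psenen, Rbpj, Maml1, Maml2 and Maml3. They were taken by gene name from the raw count tables of 2 mouse leukaemia models, which share 22088 genes, and were followed as CPM in each library and as log2 fold changes between groups. CPM are counts scaled to a library of 1000000 counts after TMM normalization, which corrects for library composition. All 9 passed the filter on low counts in both models.

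NOTCH receptors sit in the plasma membrane and are cut in sequence after a ligand binds. ADAM10 removes the extracellular part, and γ-secretase, built from a presenilin, nicastrin, APH1 and PEN2, then releases the intracellular domain from the membrane. In the nucleus this domain binds the DNA-binding protein RBPJ and recruits a Mastermind-like coactivator (MAML) to activate target genes such as those of the HES family. RBPJ without the domain holds corepressors at the same sites. NOTCH signalling is best known in blood for directing progenitors to the T cell lineage.

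RNA had been sequenced from erythroid blasts of mice carrying a Spi1 transgene that is expressed constitutively and blocks erythroid progenitors, with 1 library per mouse. Mice are named by state (PL, preleukaemic; L, leukaemic) and number, as in their titles. Model 1 (DBA2JxFVB/N strain) held 4 preleukaemic mice with intact Fanca (TgSpi1FA+/+; PL_138, PL_445, PL_451 and PL_479), 3 preleukaemic mice with a homozygous Fanca deletion (TgSpi1FA-/-; PL_40, PL_77 and PL_224) and 3 leukaemic TgSpi1FA-/- mice (L_26, L_28 and L_39). FANCA is a core protein of the Fanconi anaemia DNA repair pathway. Model 2 (DBA2J strain) held 4 preleukaemic (PL_633, PL_663, PL_812 and PL_837) and 3 leukaemic (L_601, L_606 and L_921) TgSpi1FA+/+ mice, and its leukaemic cells had arisen after serial blood transfusion. All cells were kept in culture with erythropoietin (EPO) and diluted 2 days before RNA extraction, so each value is that of cultured blasts and not of the spleen or marrow. The transgene was heterozygous in TgSpi1FA-/- mice, and the labels give no age. Model 1 libraries took 400 ng of input RNA, fragmented for 8 min, and model 2 libraries took 300 ng, fragmented for 2 min, so model, strain and library protocol cannot be told apart.

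Library totals ran from 29964576 to 38217654 counts in model 1 and from 37726753 to 40514205 in model 2. Mice PL_40, PL_77 and PL_224 were taken as preleukaemic from their titles and cell type labels, although a further label and the column names call them leukaemic. Fanca was between 0.615 and 2.30 CPM in the 6 TgSpi1FA-/- libraries and between 28.1 and 83.5 CPM in the 11 TgSpi1FA+/+ libraries. Libraries PL_445 and PL_479 were unusually alike (a chi-square of 8.53 per degree of freedom, where the other pairs within the groups of model 1 gave 114 to 372), so results that use the TgSpi1FA+/+ preleukaemic group of model 1 are also given without each of them. Erythroid markers (9 genes, among them Gata1, Klf1, Tfrc and Epor) summed to 2200 to 5113 CPM in all 17 libraries, whereas B cell markers summed to at most 0.521 CPM and myeloid markers to at most 1.78 CPM. A second deposited table holds other counts for 7 of the model 1 mice (all but PL_40, PL_77 and PL_224), and it was used as a repeat measurement.

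The start regions of Adam10, Aph1a and Maml2 are shown because these 3 genes changed between leukaemic and preleukaemic TgSpi1FA-/- cells. Each run holds the 250 bases before a RefSeq start of the gene, the first listed where there are several, on the plus strand of GRCm38.p6, at 9:70678732-70678981 for Adam10, 3:95893671-95893920 for Aph1a and 9:13297708-13297957 for Maml2. Bases just after the start were found in a GENCODE transcript of the gene for Maml2 but not for Adam10 or Aph1a. The windows of Adam10 and Aph1a end short of the GENCODE gene starts, 70678997 and 95893969.
Adam10: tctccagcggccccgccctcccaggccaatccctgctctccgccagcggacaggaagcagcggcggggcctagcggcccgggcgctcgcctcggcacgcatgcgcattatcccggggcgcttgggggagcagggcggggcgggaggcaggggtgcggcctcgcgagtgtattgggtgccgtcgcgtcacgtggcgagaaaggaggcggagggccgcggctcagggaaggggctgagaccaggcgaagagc
Aph1a: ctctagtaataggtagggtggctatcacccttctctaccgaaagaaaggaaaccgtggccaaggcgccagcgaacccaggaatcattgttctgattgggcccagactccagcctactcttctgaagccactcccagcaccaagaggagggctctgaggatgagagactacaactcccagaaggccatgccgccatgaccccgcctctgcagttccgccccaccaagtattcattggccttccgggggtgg
Maml2: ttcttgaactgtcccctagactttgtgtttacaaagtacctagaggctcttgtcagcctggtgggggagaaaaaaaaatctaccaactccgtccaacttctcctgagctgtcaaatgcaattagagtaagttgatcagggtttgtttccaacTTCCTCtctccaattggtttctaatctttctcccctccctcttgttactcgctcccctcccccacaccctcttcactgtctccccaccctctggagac
Capitals mark the only match to any of 3 motifs searched on both strands, the SPI1 core GAGGAA (reverse TTCCTC) in Maml2. The GATA motif AGATAA and the RBPJ core TGGGAA had no match in these windows. A second RefSeq start of Maml2, with its window at 9:13662210-13662459, held 1 RBPJ core and no SPI1 core. Of 32851 RefSeq promoter windows of the same length, 23.25% held the SPI1 core, 9.988% the GATA motif and 21.59% the RBPJ core, so matches of this kind are common. Among the other members, the RBPJ core occurred 2 times in the first listed start region of Rbpj itself and 1 time in that of Maml3.

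The members differed widely in level. Per kilobase of exon, Adam10 was the highest member in each of the 5 groups in the tables of the models, with means from 42.4 to 89.0 CPM per kb, and its range did not meet that of the next gene except in the leukaemic cells of model 2. Psen2 and Ncstn came next in model 1, with means between 20.3 and 32.3 CPM per kb, and their ranges overlapped in each group. Maml2 was the lowest member in both preleukaemic groups of model 1 and in both groups of model 2, with means from 0.133 to 0.338 CPM per kb. In the leukaemic TgSpi1FA-/- cells its mean of 1.87 ± 1.70 CPM per kb (SD, n = 3) lay above those of Rbpj and Psenen. The ranges overlapped, and this higher rank was seen in the model 1 table only. Aph1a and Maml1 changed places in that group: Aph1a lay below Maml1 in both preleukaemic groups of model 1 (4.2 and 4.72 against 6.91 and 6.91 CPM per kb) and above it in the leukaemic cells (14.8 against 5.23), with ranges that did not overlap in any of the 3 groups. The exchange was seen in the model 1 table only. In the second table of the same mice, Aph1a lay above Maml1 in the TgSpi1FA+/+ preleukaemic mice too (16.6 against 5.18 CPM per kb), and the leukaemic mice had Aph1a first at 51.6, Psen2 next at 34.1 and Adam10 at 30.8 CPM per kb. The range of Psen2 overlapped both of the others, while those of Aph1a and Adam10 did not meet. Maml2 was the lowest member in the leukaemic mice of the second table, at 1.29 CPM per kb. Rbpj was next at 1.87 CPM per kb, with an overlapping range, and Psenen was at 30.1.

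**Figure D1:**
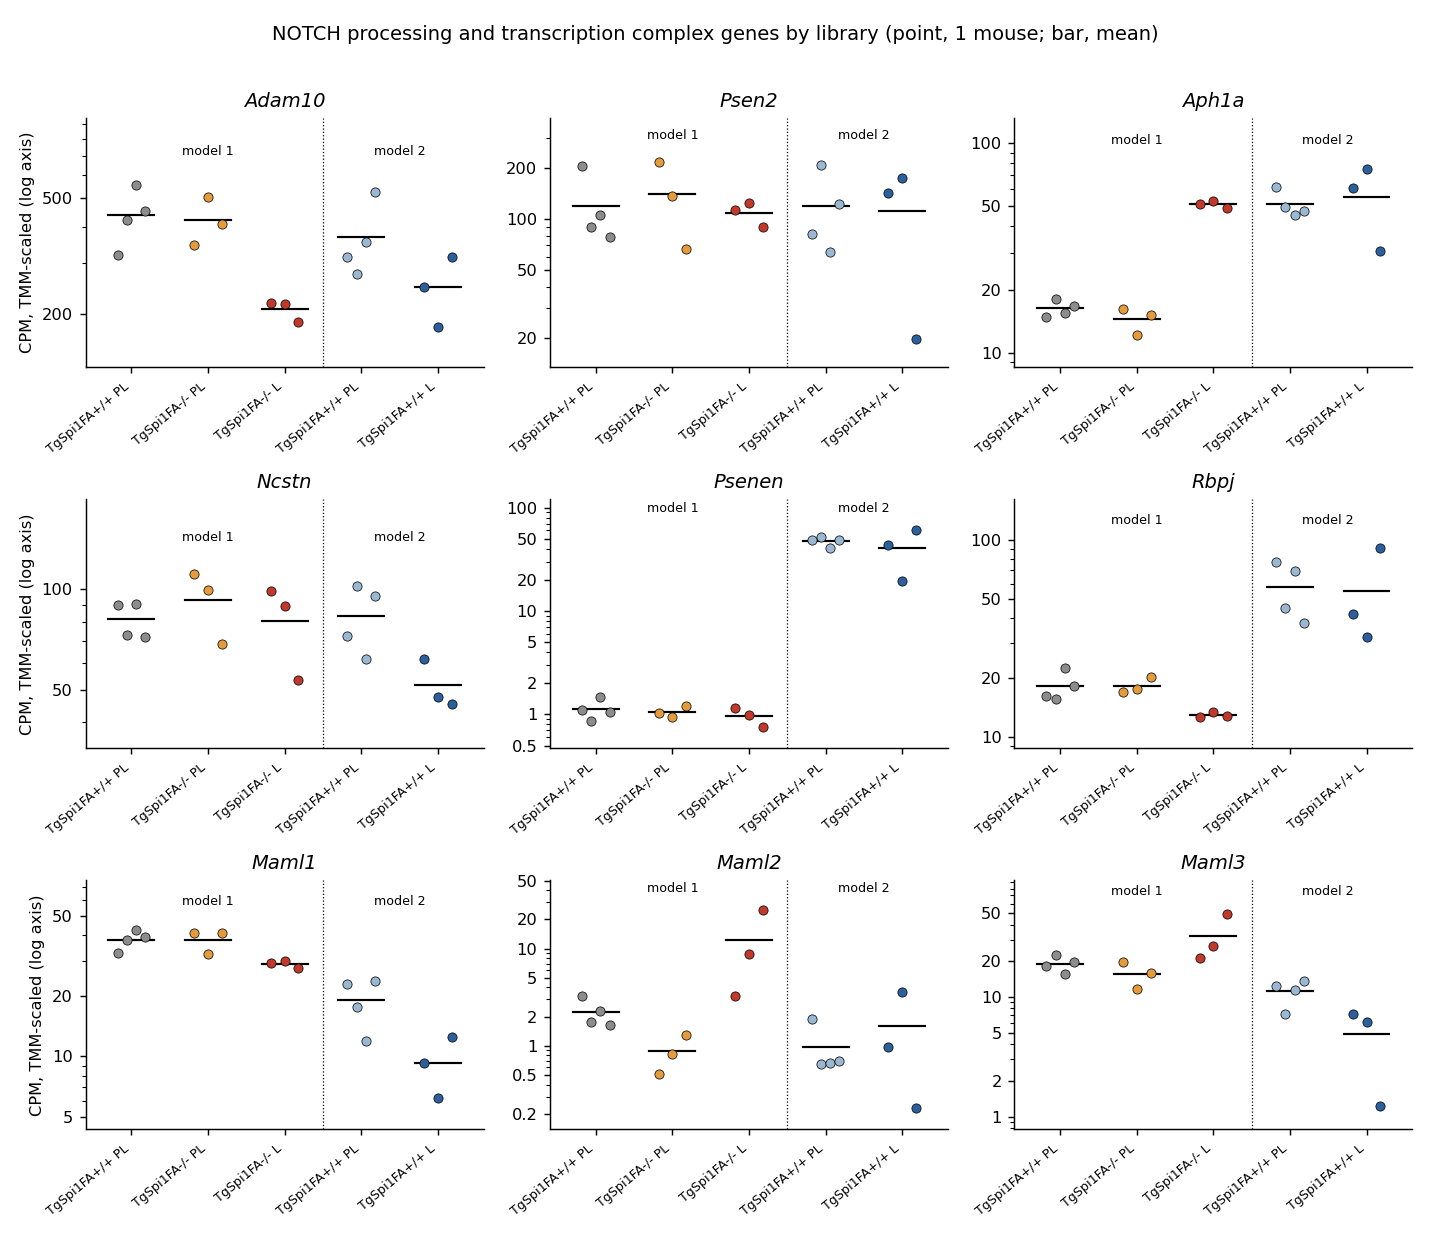
CPM of the 9 genes in each library (log axis; point, 1 mouse; bar, group mean; PL, preleukaemic; L, leukaemic; the dotted line parts the models). In model 1 the 3 leukaemic TgSpi1FA-/- libraries lie apart from the 3 preleukaemic ones upwards for Aph1a, Maml2 and Maml3 and downwards for Adam10, Rbpj and Maml1.

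The first comparison asked what changed with leukaemia in cells without FANCA. Of the 9 genes, 3 were differentially expressed between TgSpi1FA-/- leukaemic and preleukaemic cells (edgeR's quasi-likelihood test, Benjamini-Hochberg adjusted p under 0.05 and at least 1.5-fold either way): Aph1a and Maml2 were increased and Adam10 was repressed. Over all 13393 genes tested, 13.3% were called, 6.82% higher and 6.49% lower. The 2 groups of libraries did not overlap for 6 members, 3 of them higher and 3 lower in leukaemic cells, where 19.4% of all genes tested were higher and 19.3% lower without overlap. The median log2 fold change of the members was -0.21 and that of all genes tested was -0.00. Two-sided exact permutation tests over libraries cannot go below p = 0.1 with 3 mice against 3.

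Adam10 (ENSMUSG00000054693), on the plus strand of chromosome 9 of GRCm38 from 70678997 to 70780229, encodes the protease that makes the first ligand-dependent cut of NOTCH receptors. It measured 346.6, 503.6 and 409.4 CPM in the preleukaemic TgSpi1FA-/- libraries PL_40, PL_77 and PL_224 and 218.6, 217.6 and 188.8 CPM in the leukaemic libraries L_26, L_28 and L_39. Each leukaemic library was below each preleukaemic one, and the leukaemic libraries were close together. The mean went from 420 ± 79.0 to 208 ± 16.9 CPM (SD, n = 3 each), a 2.02-fold lower level (log2 fold change -1.01, SE 0.21, adjusted p = 0.0196 by edgeR). The adjusted p of edgeR rose to 0.0665 without L_28, 0.0627 without L_39, 0.0623 without PL_224 and 0.0590 without PL_77, with log2 fold changes between -1.02 and -0.85.

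The γ-secretase genes did not move together. Aph1a (ENSMUSG00000015750), on the plus strand of chromosome 3 from 95893969 to 95898288, encodes the scaffold around which the complex assembles. It measured 16.2, 12.2 and 15.1 CPM in PL_40, PL_77 and PL_224 and 51.4, 52.6 and 48.8 CPM in L_26, L_28 and L_39. All 3 leukaemic libraries were far above the highest preleukaemic one and differed little from each other. The mean rose from 14.5 ± 2.11 to 50.9 ± 1.97 CPM (SD, n = 3 each), which is 3.51-fold (log2 fold change 1.81, SE 0.18, adjusted p = 0.00195 by edgeR). Its adjusted p was at most 0.0160 with any 1 library of the fit left out. On the other strand, 12.9% of its 3450 exon bases overlap Car14, which had 0 to 4 counts in the libraries of model 1 except for 81 in L_39.

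The other 3 measured subunits did not pass the test. Psen2 (ENSMUSG00000010609, minus strand of chromosome 1 from 180227004 to 180263438) encodes a catalytic presenilin. It ranged from 66.7 to 217.6 CPM in the preleukaemic and from 89.6 to 123.5 CPM in the leukaemic TgSpi1FA-/- libraries (log2 fold change -0.37, SE 0.45, adjusted p = 0.611 by edgeR). The groups overlapped, and the wide spread lay in the preleukaemic mice. Ncstn (ENSMUSG00000003458, minus strand of chromosome 1 from 172066013 to 172082795), the substrate receptor nicastrin, ranged from 68.6 to 111.3 CPM before and from 53.7 to 98.9 CPM after leukaemia (log2 fold change -0.21, SE 0.25, adjusted p = 0.611 by edgeR). Psenen (ENSMUSG00000036835, minus strand of chromosome 7 from 30561863 to 30563627), which encodes PEN2, was near 1 CPM in all 10 libraries of model 1, with 28 to 46 counts each, and its log2 fold change was -0.13 (SE 0.36). The deposited table of model 1 limits what can be said of Psenen, as the comparison with the second table shows.

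The paralogues Aph1b and Aph1c can take the place of Aph1a. Aph1a made up 94.4% to 98.8% of the APH1 message (the 3 genes together, per kb of exon) in the leukaemic and 98.5% to 99.3% in the preleukaemic TgSpi1FA-/- libraries. Other preleukaemic libraries also lay below the latter range, with 94.7% in PL_479, 96.3% in PL_445 and, in model 2, 89.7% in PL_812. In the second table the share was 98.4% to 99.2% in the leukaemic mice and 98.7% to 99.8% in the TgSpi1FA+/+ preleukaemic mice. The 94.4% of L_39 was thus seen in the model 1 table only. Aph1b itself was at 0.795 to 3.55 CPM in leukaemic and 0 to 0.226 CPM in preleukaemic TgSpi1FA-/- libraries. In TgSpi1FA+/+ preleukaemic libraries of model 1 it reached 1.14 CPM. The second table had Aph1b at 1.05 to 2.59 CPM in leukaemic and 0.0114 to 0.270 CPM in TgSpi1FA+/+ preleukaemic mice. It was called in neither table.

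**Figure D2:**
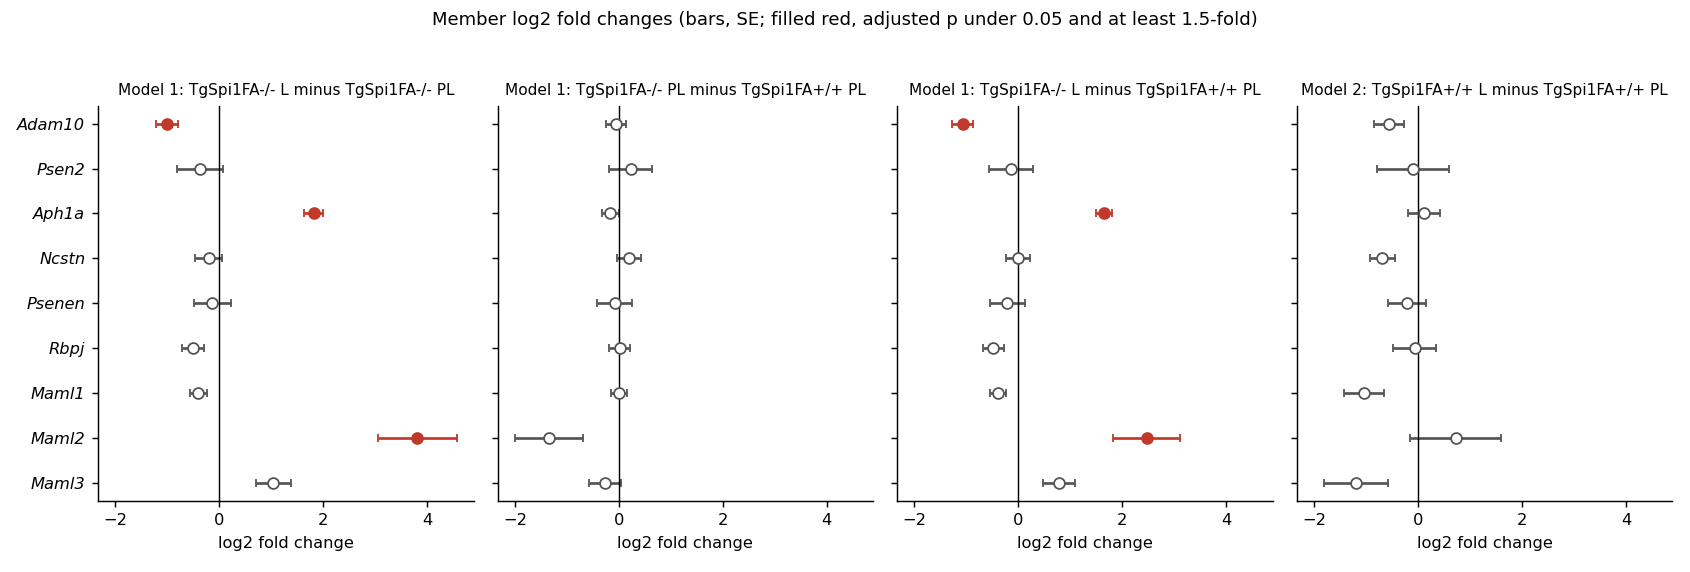
log2 fold changes of the 9 genes (points) with their SE (bars) in 4 comparisons. Filled red points passed an adjusted p of 0.05 at 1.5-fold or more. Adam10, Aph1a and Maml2 are filled in both comparisons with leukaemic TgSpi1FA-/- cells, whereas no point is filled between the preleukaemic groups or in model 2.

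In the nuclear complex, Rbpj and Maml1 were slightly lower and Maml2 and Maml3 higher in leukaemic TgSpi1FA-/- cells, and Maml2 alone passed the test. Maml2 (ENSMUSG00000031925, plus strand of chromosome 9 from 13297957 to 13709388) encodes a Mastermind-like coactivator. It measured 0.518, 0.821 and 1.29 CPM (16, 25 and 44 counts) in PL_40, PL_77 and PL_224 and 3.29, 8.82 and 24.9 CPM (120, 345 and 980 counts) in L_26, L_28 and L_39. The groups did not overlap, but the leukaemic mice were far apart from each other. The mean was 0.875 ± 0.387 CPM before and 12.3 ± 11.2 CPM after leukaemia (SD, n = 3 each), a 14-fold difference (log2 fold change 3.81, SE 0.76, adjusted p = 0.0174 by edgeR). The adjusted p was 0.0525 without PL_224, 0.0558 without PL_40 and 0.0543 without PL_77, and the log2 fold change fell to 2.80 without L_39.

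Maml3 (ENSMUSG00000061143), a paralogue on the minus strand of chromosome 3 from 51685907 to 52105076, measured 19.4, 11.6 and 15.7 CPM in PL_40, PL_77 and PL_224 and 21.1, 26.4 and 48.7 CPM in L_26, L_28 and L_39. Its groups did not overlap either, by a small gap between PL_40 and L_26. The log2 fold change was 1.04 (SE 0.34), which edgeR did not call (adjusted p = 0.0683) and which passed without L_26 (0.0333) and with DESeq2's Wald test (0.0225). Maml1 (ENSMUSG00000050567, minus strand of chromosome 11 from 50255634 to 50292311) was at 32.5 to 41.1 CPM before and 27.6 to 29.9 CPM after leukaemia (log2 fold change -0.40, SE 0.16, adjusted p = 0.121 by edgeR). Rbpj (ENSMUSG00000039191, plus strand of chromosome 5 from 53466152 to 53657362), the DNA-binding partner of the cleaved receptor, was at 16.9 to 20.2 CPM before and 12.6 to 13.3 CPM after leukaemia (log2 fold change -0.50, SE 0.21, adjusted p = 0.139 by edgeR). Both were lower in each leukaemic library than in each preleukaemic one.

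The make-up of the Mastermind-like message differed accordingly. Per kb of exon, Maml1 made up 79.3%, 82.7% and 81.5% of the summed Maml1, Maml2 and Maml3 level in PL_40, PL_77 and PL_224, and 67.9%, 58.4% and 37.2% in L_26, L_28 and L_39. Maml2 made up 0.840%, 1.75% and 2.14% in the former and 6.38%, 14.4% and 28.1% in the latter. The share of Maml3 was 29.2% ± 4.77 (SD, n = 3) in leukaemic and 17.3% ± 2.28 in preleukaemic TgSpi1FA-/- cells. None of these shares overlapped between the groups (two-sided exact permutation tests, p = 0.1, the smallest possible). In model 2 all 3 shares overlapped between leukaemic and preleukaemic cells, with Maml2 at 5.90%, 24.3% and 1.43% in L_601, L_606 and L_921 and at 1.84% to 5.05% in the preleukaemic mice. The second table sets the leukaemic TgSpi1FA-/- mice against the TgSpi1FA+/+ preleukaemic ones. There the Maml2 share overlapped, with 8.29% in PL_451 and 7.25% in L_26, while those of Maml1 and Maml3 did not.

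**Figure D3:**
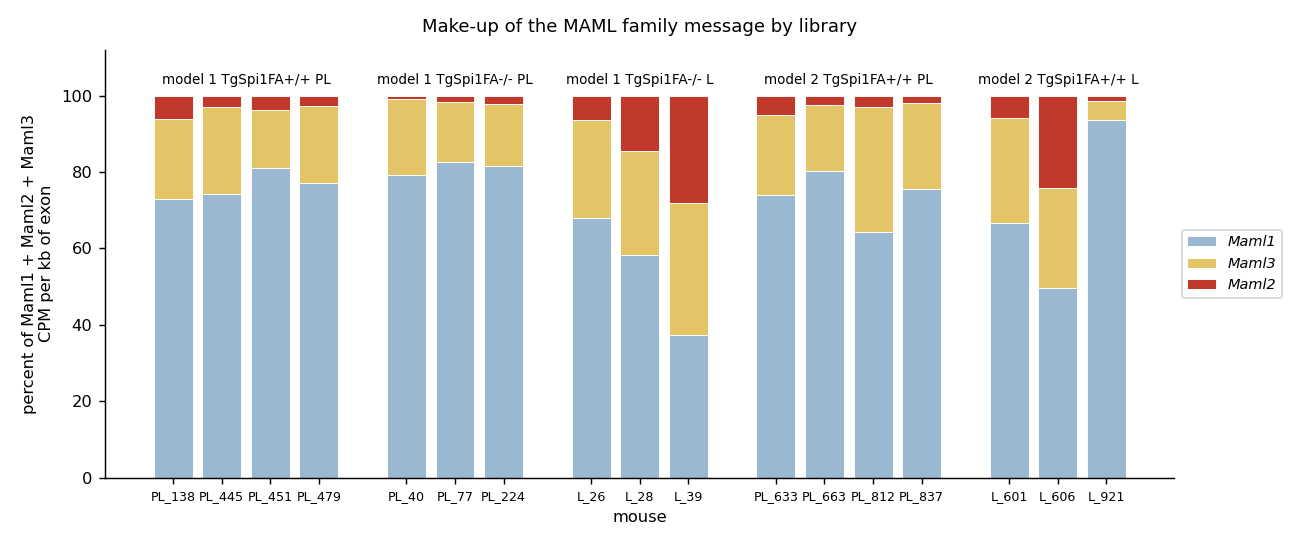
Share of Maml1, Maml3 and Maml2 in the summed CPM per kb of exon of the family, for each library (stacked bars add up to 100%; PL, preleukaemic; L, leukaemic). Maml2 reaches 28.1% in L_39 and 24.3% in L_606 and stays at or below 6.05% in all preleukaemic libraries drawn, which leave out the second table.

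The second comparison asked what the loss of FANCA changed before leukaemia. No member was differentially expressed between TgSpi1FA-/- and TgSpi1FA+/+ preleukaemic cells, where 0.00747% of all genes tested were called, and no member had an unadjusted p under 0.05, against 8.65% of all genes. The 1 gene called lay on chromosome 3 and was not Fanca. The deleted gene itself was missed, at 28.2 to 83.5 CPM in TgSpi1FA+/+ and 0.615 to 2.30 CPM in TgSpi1FA-/- preleukaemic libraries. The lack of calls therefore does not show that FANCA loss left the members unchanged. DESeq2's Wald test called no member either. Maml2 had the largest difference and was the only member whose groups did not overlap. It measured 3.24, 1.75, 2.27 and 1.65 CPM in PL_138, PL_445, PL_451 and PL_479, each above all 3 TgSpi1FA-/- preleukaemic libraries (log2 fold change -1.34, SE 0.66, adjusted p = 0.606 by edgeR; exact permutation over mice, two-sided p = 0.057, the lowest value possible with 3 against 4). Over all genes tested, 4.27% were lower without overlap. The log2 fold changes of the other 8 members lay between -0.27 for Maml3 and 0.23 for Psen2. Without PL_445 or without PL_479, the number of members called was 0 as well.

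Against the TgSpi1FA+/+ preleukaemic cells, the same leukaemic TgSpi1FA-/- libraries differed in the same 3 members, with 7.01% of all genes tested called. Without overlap, 2 members were higher and 3 lower, where 12.8% and 12.9% of all genes were. This comparison shares libraries with both above and is not independent of them. Aph1a measured 14.8, 18.1, 15.5 and 16.6 CPM in PL_138, PL_445, PL_451 and PL_479 (log2 fold change 1.65, SE 0.16, adjusted p = 0.00292 by edgeR), and Adam10 measured 318.4, 421.8, 556.5 and 452.2 CPM (log2 fold change -1.07, SE 0.20, adjusted p = 0.0212 by edgeR). Both ranges lay clear of the leukaemic ones. Maml2 was at the threshold (log2 fold change 2.47, SE 0.64, adjusted p = 0.0499 by edgeR), since L_26 at 3.29 CPM was barely above PL_138 at 3.24 CPM. The call of Maml2 held only without L_26 or without PL_138 (adjusted p up to 0.188 with another library left out). Without PL_445 the adjusted p of edgeR was 0.0604 for Adam10 and 0.128 for Maml2, and without PL_479 it was 0.0647 and 0.130. Without L_28 or without L_39, Adam10 (0.0803 and 0.0783) and Maml2 (0.113 and 0.188) were not called either, while Aph1a was called in each case (adjusted p at most 0.0239).

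The second table repeated this last comparison for the same 7 mice, from 35497594 to 171572736 counts per library, and 1.59% of the 16799 genes tested there were called. Aph1a was the only member called. Without overlap, 2 members were higher and 2 lower, where 10.5% and 8.07% of all genes were. Aph1a measured 189.8, 199.9 and 143.8 CPM in L_26, L_28 and L_39 and 46.4, 56.8, 67.3 and 58.9 CPM in PL_138, PL_445, PL_451 and PL_479 (log2 fold change 1.63, SE 0.21, adjusted p = 0.0200 by edgeR). The groups were again far apart. Adam10 had a log2 fold change of -1.22 (SE 0.32, adjusted p = 0.113) without overlap, and Maml2 one of 2.23 (SE 0.84, adjusted p = 0.218) with overlap, since PL_451 had 4.39 CPM and L_26 had 2.98 CPM. In this table PL_445 and PL_479 were nearly as far apart as other mice (a chi-square of 350 per degree of freedom, where the other pairs gave 393 to 742).

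The tables of the same mice differed in level for some members. Psenen averaged 1.06 CPM in the table of model 1 and 45.4 CPM in the second table over the same 7 mice, a 42.9-fold difference. Of 9746 genes above 5 CPM, 0.667% had a lower ratio of the first table to the second. Aph1a was 3.5-fold and Rbpj 1.97-fold higher in the second table, while the other 6 members had between 0.677 and 1.38 times their first level there. Levels of these 3 genes are therefore not compared between the models, which stand in separate tables. Psenen shares 119 of its 1275 exon bases with U2af1l4 on the other strand, which had 6 to 26 counts in the libraries of model 1, and 111 with Gm49396, also on the other strand, which had 23 to 165 counts. The cause of the low Psenen counts was not tested. In the second table Psenen ranged from 29.6 to 46.5 CPM in leukaemic and from 43.5 to 54.0 CPM in preleukaemic mice (log2 fold change -0.40, SE 0.23, adjusted p = 0.389 by edgeR).

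**Figure D4:**
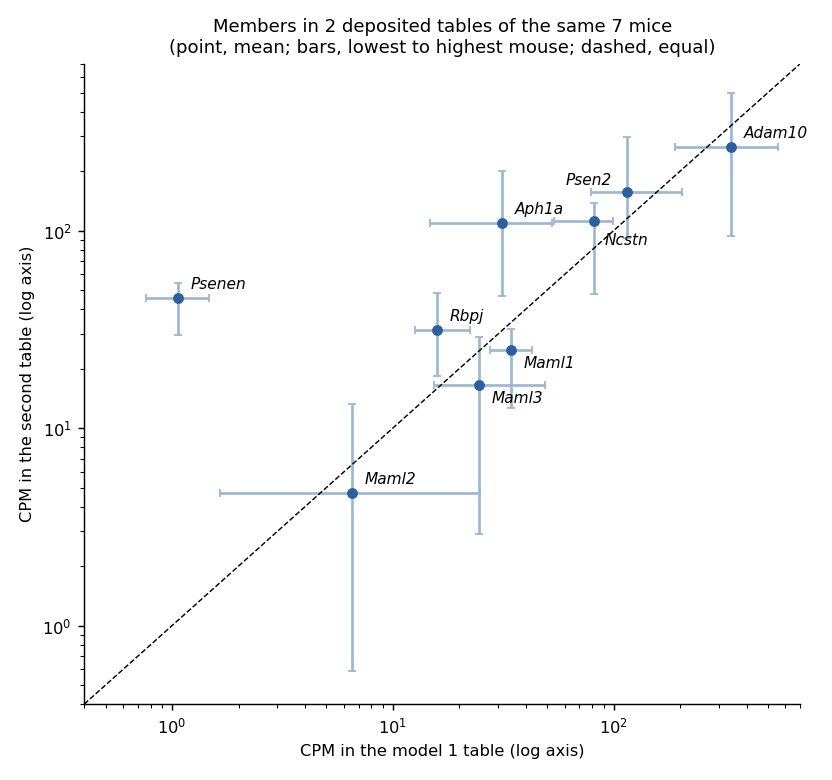
Mean CPM of the 9 genes over the same 7 mice of model 1 in the table of model 1 (horizontal, log axis) and in the second table (vertical, log axis); bars span the lowest to the highest mouse and the dashed line marks equal values. Psenen lies far above the line, at 1.06 against 45.4 CPM, and Aph1a and Rbpj lie above it by 3.5-fold and 1.97-fold.

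The third comparison asked what changed with leukaemia in cells with FANCA, in model 2. No member was differentially expressed, and 0% of the 12970 genes tested were called by edgeR, where 19.9% had an unadjusted p under 0.05. The groups overlapped for every member, and did not overlap for 20.1% of all genes tested. DESeq2's Wald test called 470 genes and no member. The 2 members with an unadjusted p under 0.05 were both lower in leukaemic cells. Maml1 measured 9.23, 6.19 and 12.5 CPM in L_601, L_606 and L_921 and 22.9, 17.6, 11.9 and 23.8 CPM in PL_633, PL_663, PL_812 and PL_837 (log2 fold change -1.04, SE 0.38, adjusted p = 0.203 by edgeR). Ncstn measured 62.0, 47.4 and 45.4 CPM in the former and 72.5, 102.2, 62.0 and 95.8 CPM in the latter (log2 fold change -0.69, SE 0.24, adjusted p = 0.186 by edgeR). In both genes the ranges met only through preleukaemic mouse PL_812.

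The members called in model 1 gave smaller and more scattered values in model 2. Adam10 measured 247.2, 181.1 and 314.5 CPM in L_601, L_606 and L_921 and 314.5, 274.4, 354.0 and 524.6 CPM in the preleukaemic mice (log2 fold change -0.57, SE 0.29, adjusted p = 0.314 by edgeR). Aph1a measured 60.7, 75.0 and 30.7 CPM in leukaemic and 61.6, 49.3, 45.3 and 47.6 CPM in preleukaemic mice (log2 fold change 0.12, SE 0.31, adjusted p = 0.855 by edgeR), and L_921 stood below all the others. Maml2 measured 0.975, 3.60 and 0.227 CPM in leukaemic and 1.87, 0.650, 0.667 and 0.692 CPM in preleukaemic mice (log2 fold change 0.73, SE 0.88, adjusted p = 0.679 by edgeR). Maml3 was lower by a log2 fold change of -1.195 (SE 0.61, adjusted p = 0.317 by edgeR). The leukaemic mouse L_921 held the lowest level of the 3 leukaemic mice in 5 members (Psen2, Aph1a, Ncstn, Maml2 and Maml3) and the highest in the other 4, so it was an extreme of its group throughout.

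The leukaemic changes of both models were then compared by their difference in a fit of all 17 libraries, which also carries strain and library protocol. Of the 9 genes, 1 had a different change, with 4.61% of the 14597 genes tested called. This was Aph1a, whose log2 change was higher in model 1 by 1.68 (SE 0.34, adjusted p = 0.0292 by edgeR). The call was lost without any of L_28, L_39, PL_40, PL_77, PL_224, L_601 or L_921 (adjusted p between 0.0521 and 0.0770), with differences between 1.39 and 1.76. Maml3 (2.23, SE 0.68, adjusted p = 0.0658) and Maml2 (3.05, SE 1.2, adjusted p = 0.125) were not called by edgeR and were called by DESeq2's Wald test (adjusted p = 0.0122 and 0.0418). The change of Adam10 did not differ detectably between the models (-0.46, SE 0.36, adjusted p = 0.446 by edgeR).

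The genes around Aph1a moved with it in model 1. Of 77 other genes tested within 1 Mb of Aph1a, 65 had a higher level in leukaemic than in preleukaemic TgSpi1FA-/- cells, 32 (41.6%) were called higher and 0 lower, where 6.82% of all genes tested were called higher. Their median log2 fold change was 1.29. It was 1.21 for 35 genes from 1 to 5 Mb away, 0.35 for 222 genes from 5 to 20 Mb and 0.04 for 338 genes farther along the chromosome. Among the genes called within 1 Mb were Mcl1, an antiapoptotic BCL2 family gene (log2 fold change 1.39), Setdb1, a histone H3 lysine 9 methyltransferase (1.64), and Tars2, a mitochondrial threonyl-tRNA synthetase (1.80). These distances were chosen after the neighbours had been seen.

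Within 1 Mb, all 3 leukaemic mice lay above all 7 preleukaemic ones, to different extents. Relative to the mean of the preleukaemic TgSpi1FA-/- mice, the median log2 difference of the 77 genes was 0.90 in L_26, 1.55 in L_28 and 1.38 in L_39. The TgSpi1FA+/+ preleukaemic mice lay between 0.06 and 0.50, with PL_445 at 0.50 and PL_479 at 0.36. From 1 to 5 Mb away it was 1.48 in L_28 and 1.82 in L_39 but 0.30 in L_26, below the 0.56 of PL_445 and the 0.49 of PL_479. Chromosome 3 held the highest percentage of genes called higher of any chromosome in model 1, 14.6% of 673. In model 2 the median log2 fold change of the 77 genes tested within 1 Mb was 0.54, with 63 of them higher in leukaemic cells and none called, and Aph1a itself was at 0.12. By mouse, over 71 of these genes, the median difference from the preleukaemic mean was 0.60 in L_601, 0.87 in L_606 and -0.12 in L_921, so L_921 lay within the preleukaemic range. The whole of chromosome 3 had a median of 0.38 there, against 0.25 in model 1. Between the preleukaemic groups of model 1 the median was -0.21. In the second table, 84 of 95 such genes were higher in leukaemic cells than in TgSpi1FA+/+ preleukaemic cells, with a median of 1.32.

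**Figure D5:**
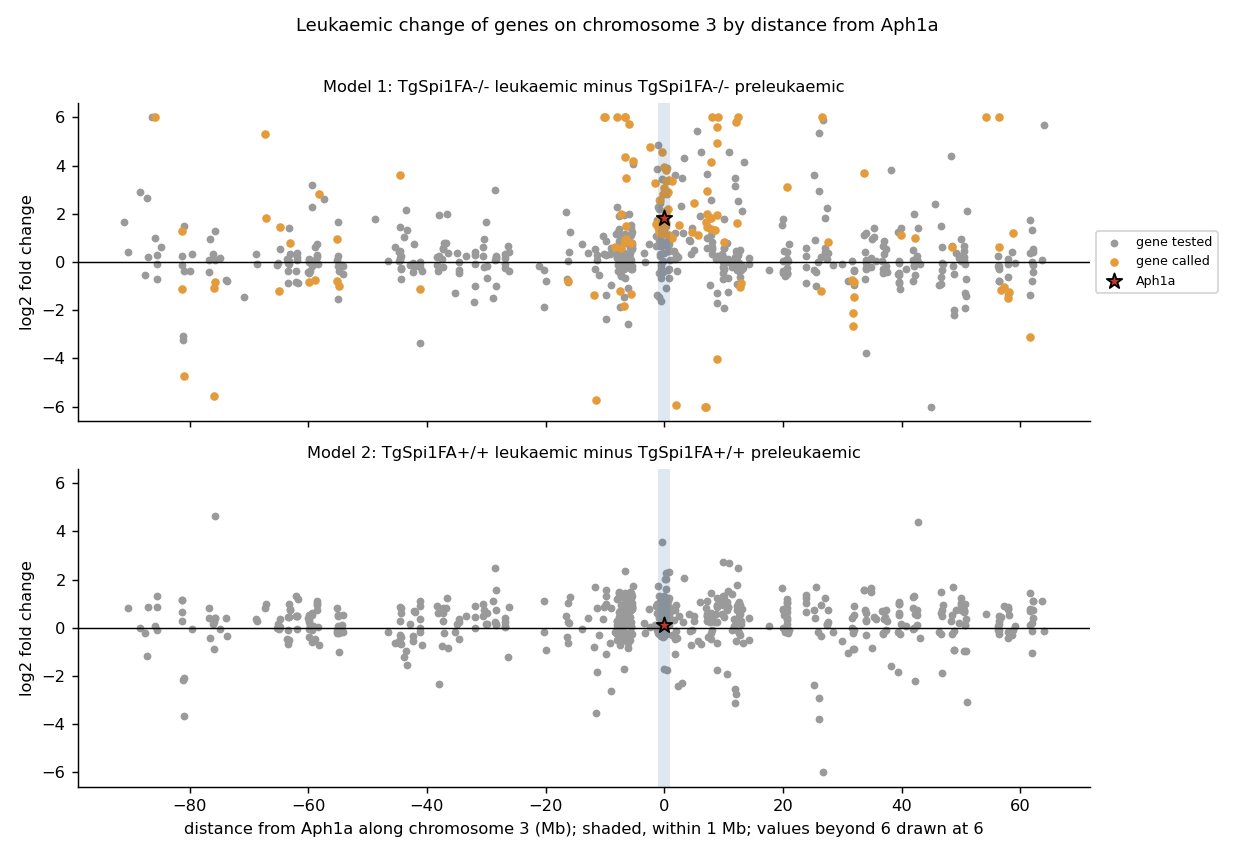
log2 fold change with leukaemia for each tested gene of chromosome 3, by distance from Aph1a in Mb, in model 1 (top) and model 2 (bottom). Genes within 1 Mb (shaded) have a median of 1.29 in model 1 and 0.54 in model 2, and orange points mark genes called in model 1.

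The neighbourhoods of the other called members had few calls. Within 1 Mb of Adam10, 14 genes were tested with a median log2 fold change of -0.33, and 1 was called higher and 1 lower. The tested genes on either side of Adam10 were lower without a call, Gm10642 at -1.47 (SE 0.60, adjusted p = 0.128 by edgeR) and Lipc at -1.70 (SE 0.72, adjusted p = 0.139). Within 1 Mb of Maml2, 10 genes had a median of -0.35, and 1 was called higher and 1 lower. The nearest tested gene on its upper side, Mtmr2, 39022 bases away, was called higher (log2 fold change 0.76, SE 0.15, adjusted p = 0.0161 by edgeR). Maml3, on the same chromosome as Aph1a but far from it, had 14 tested neighbours with a median of 0.20. Near Ncstn, the nearest tested gene on the lower side was Vangl2, a planar cell polarity gene of the WNT pathways, which was called higher (adjusted p = 0.0176 by edgeR) while Ncstn itself was not.

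Some genes followed the called members across the 10 libraries of model 1, mostly through the same difference between groups. As a description, the genes most like Aph1a in log2 CPM were Kifc3, Tars2 and Ensa (Pearson r from 0.983 to 0.985), and the last 2 lie on chromosome 3. Those most like Adam10 were Man1a, Slc45a3 and Rbks (r from 0.978 to 0.986). Those most like Maml2 were Smarcd1, Spred3 and Tlcd5 (r from 0.961 to 0.966). Over the 7 libraries of model 2, r was 0.94 for Spred3 with Maml2 and between -0.52 and 0.53 for the other 8.

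The rest of the pathway was read from a list of 69 other NOTCH genes, of which 55 were tested in model 1. Between leukaemic and preleukaemic TgSpi1FA-/- cells, 3 were called higher and 1 lower, which is 4 of 55 against 13.3% of all genes tested. The count went from 1 without PL_224 to 9 without L_26 and was 2 without PL_40 or without PL_77, and DESeq2's Wald test called 10. The median log2 fold change of the list was 0.17, with 30 genes higher and 25 lower. Jag2, a NOTCH ligand, measured 0.712, 68.1 and 127 CPM in L_26, L_28 and L_39 and at most 0.351 CPM in the preleukaemic TgSpi1FA-/- libraries (adjusted p = 0.0164 by edgeR). L_26 thus stood nearly at the preleukaemic level in the model 1 table. In the second table L_26 had 3.54 CPM, against at most 0.642 CPM in the TgSpi1FA+/+ preleukaemic mice. Tspan17, a tetraspanin that binds ADAM10, was higher (log2 fold change 3.74, SE 1.03, adjusted p = 0.0427), with 62 to 150 counts in leukaemic and 0 to 18 in preleukaemic libraries. Neurl3, a paralogue of a ubiquitin ligase of NOTCH ligands, rose from 2.31 to 6.15 CPM to 33.1 to 50.9 CPM (log2 fold change 3.30, SE 0.64, adjusted p = 0.0165). In the TgSpi1FA+/+ preleukaemic libraries of model 1 Neurl3 ranged from 6.51 to 32.2 CPM, up to just below the leukaemic range. It was not called against them. Kat2b, a histone acetyltransferase that acts with the NOTCH complex, fell from 51.7 to 79.9 CPM to 17.8 to 19.2 CPM (log2 fold change -1.81, SE 0.27, adjusted p = 0.00836).

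Among receptors and targets, Notch1 was detected mainly in leukaemic TgSpi1FA-/- cells, and the other receptor and the targets described here were not called. The receptor gene Notch2 measured 47.9, 120.7 and 163.2 CPM in L_26, L_28 and L_39 and 202.8, 77 and 145.4 CPM in PL_40, PL_77 and PL_224 (adjusted p = 0.608 by edgeR). Notch1 was below the filter in model 1, with 4, 42 and 98 counts in L_26, L_28 and L_39 and 0 counts in all 7 preleukaemic libraries. In the second table it was tested and called higher in leukaemic TgSpi1FA-/- than in TgSpi1FA+/+ preleukaemic cells (log2 fold change 5.35, SE 1.001, adjusted p = 0.0474 by edgeR), at 0.113, 1.74 and 1.01 CPM against at most 0.0372 CPM. The target Hes1 measured 12.7, 32.3 and 38.0 CPM in leukaemic and 0.0970, 7.16 and 0 CPM in preleukaemic TgSpi1FA-/- libraries without overlap (adjusted p = 0.281 by edgeR), but it also reached 34.7 CPM in the TgSpi1FA+/+ preleukaemic mouse PL_138. Nrarp, another target, measured 10.4, 23.4 and 28.6 CPM against 12.6, 11.9 and 0.0585 CPM (adjusted p = 0.630 by edgeR). It was at 31.5 CPM in PL_138, above every leukaemic library. Adam17, the related sheddase, had a log2 fold change of -0.20 (SE 0.33). Maml2, Maml3, Jag2, Notch1, Notch2, Hes1 and Nrarp all had their lowest leukaemic value in L_26 and their highest in L_39 in model 1. In the second table L_26 was again the lowest for all 7, and L_28 was the highest for all but Jag2 and Hes1. The order was the reverse in model 1 for Adam10, Ncstn, Psenen, Adam17, Tspan17 and Neurl3, lowest in L_39 and highest in L_26. Fanca, the deleted gene, had the same order as the 7, from 0.959 CPM in L_26 to 1.67 CPM in L_39. The paper reports a Kit mutation in mouse L_26 and an Nras mutation in L_28 and L_39. Any part of these mutations in the order of the mice was not tested.

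In the other comparisons, no gene of the list was called between the preleukaemic groups of model 1 (55 tested) or in model 2 (51 tested, 44 of them lower in leukaemic cells, median log2 fold change -0.47). Against TgSpi1FA+/+ preleukaemic cells, Jag2 and the corepressor Tle3 (log2 fold change 0.91, SE 0.21, adjusted p = 0.0380 by edgeR) were called higher and Kat2b lower, and all 3 calls were lost without L_28, without PL_445 or without PL_479. In the second table, 2 of 59 genes of the list were called, Notch1 and Jag2 (log2 fold change 6.70, SE 1.13, adjusted p = 0.0339 by edgeR), both higher. The change differed between the models for Jag2, Neurl3 and Tle3, higher in model 1, and for Poglut1, a glucosyltransferase of NOTCH receptors, lower in model 1 (log2 difference -1.66, SE 0.44, adjusted p = 0.0471 by edgeR). No gene of the list was called for this difference without L_28, L_39, L_601, L_921 or any 1 of the preleukaemic TgSpi1FA-/- mice. Tle3 was at 16.7 to 19.5 CPM in leukaemic and 23.6 to 39.6 CPM in preleukaemic cells of model 2.

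Markers of other blood cells moved in part with the leukaemic state of model 1. The T cell marker list, of which 3 of 5 genes were in the table, summed to 3.86 to 5.54 CPM in leukaemic and 0.819 to 1.49 CPM in preleukaemic TgSpi1FA-/- libraries (0.929 to 3.72 CPM in TgSpi1FA+/+ preleukaemic ones), and Lck was the 1 marker that passed the filter and was called higher. The megakaryocyte list (5 genes) summed to 166 to 250 CPM in leukaemic and 31.1 to 39.9 CPM in preleukaemic TgSpi1FA-/- libraries, with Itga2b called higher. In TgSpi1FA+/+ preleukaemic libraries it summed to 43.6 to 192 CPM, which overlaps the leukaemic range, and Gp1bb had 0 counts in both preleukaemic groups. Against TgSpi1FA+/+ preleukaemic cells, 3 of the 4 megakaryocyte markers tested were lower without a call (median log2 fold change of the 4, -0.90). Itga2b was called higher there too. Erythroid markers summed to 2200 to 4033 CPM in leukaemic and 3382 to 4526 CPM in preleukaemic libraries, with Klf1 and Hbb-bt called lower. The mast cell list (5 genes) summed to 239 to 822 CPM and 275 to 409 CPM, and the stromal and endothelial list to 1.45 to 7.69 CPM and 9.82 to 274 CPM. In TgSpi1FA+/+ preleukaemic libraries the latter list summed to 2.60 to 53.1 CPM, which overlaps the leukaemic range. Its markers Cdh5 and Pdgfrb had 0 counts in every preleukaemic TgSpi1FA-/- library and were detected in at least 1 leukaemic library. The second table had both called higher in leukaemic than in TgSpi1FA+/+ preleukaemic cells. Kit is in both the mast cell and the erythroid list, and the mast cell marker Mcpt8 had 0 counts in every leukaemic library. The mast cell sum is therefore not a measure of mast cells alone. Their part in the changes of Adam10, Aph1a and Maml2 was not tested, and in bulk samples fewer cells of a type and less RNA per cell cannot be told apart.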

How the data were processed

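For each model the authors deposited a table of raw counts per gene (Ensembl identifiers) that had not been normalized. The submitters' processing notes name bcl2fastq 2.17.1.14, STAR 2.5.3a, HTSeq 0.6.1p1 and mm10. The libraries keep strand, but whether the counting used it is not given in the sources used here. A second deposited count table for 7 mice of model 1 was used as a repeat, and whether it comes from other libraries or from other sequencing of the same ones is not given either. A copy of the model 2 table was not used. Positions and exon lengths were those of GENCODE M21 (GRCm38), in which 99.8% of model 1 identifiers and 99.9% of model 2 identifiers were found. No column of per-sample values was left unmapped (0 columns).

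Each table was filtered (filterByExpr by group), TMM-normalized and fitted as a whole with edgeR 4.0.16 (R 4.3.3; glmQLFit, glmQLFTest), with all 3 groups of model 1 in 1 fit, 2 groups in model 2, and the 17 libraries together for the difference between the models. Genes were called at a Benjamini-Hochberg adjusted p under 0.05 over all genes tested and a fold change of at least 1.5. The SE is the log2 fold change divided by the root of F. CPM are of the TMM-scaled library size, CPM per kb divide them by the union of exons, and correlations used log2 CPM with a prior count of 2. Exact permutation tests (scipy 1.17.1) were two-sided on mean log2 CPM, or on the percentage for shares. Alternatives were DESeq2 size factors, DESeq2's Wald test (1.42.0), no filter, 1 CPM in 3 libraries, robust empirical Bayes, the adjusted p alone, only the compared groups and each mouse left out. The fits were tested on simulated counts with known changes and the same dispersion for every gene. That test does not show how they perform at the spread between these mice.

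The 9 members and the gene lists were chosen with earlier results of these data known. All 9 members are named, along with genes of the lists that were called, Notch1, Notch2, Adam17, Hes1, Nrarp and Fanca, the 3 genes most like each called member and the nearest tested genes on either side of some members. Mcl1 and Setdb1 near Aph1a, Aph1b, Aph1c, Car14, U2af1l4 and Gm49396 were named after their values were seen. The p-values cover the spread between mice, with 1 library each. Promoter sequences came from RefSeq (GRCm38.p6). A result on 1 further gene is not reported here.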

Additional observations from a re-analysis of the deposited data

Results flagged for a closer look

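The leukaemic change of Aph1a differed between the models by 1.68 on the log2 scale (test of the difference in edgeR, adjusted p = 0.0292), with log2 fold changes of 1.81 in model 1 and 0.12 in model 2. Model, strain and library protocol cannot be told apart in this difference.

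Among the 4 preleukaemic mice of model 2, PL_633 stood apart for Maml2, at 1.87 CPM against 0.650 to 0.692 CPM in the others. Its gap to the nearest mouse was 0.965 of the range of the group, above Dixon's limit for 4 samples, and chance alone flags about 1 in 20 such groups.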

How the results depend on the processing

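No paired analysis was possible because the groups share no replicate numbers. Of 747 log2 fold changes of members recomputed under an alternative, 667 stayed on the same side of the threshold in the same direction, 31 lost and 4 gained the call, and 45 changed sign, the latter in comparisons in which the member was not called. With DESeq2's Wald test, 3099 genes were called between leukaemic and preleukaemic TgSpi1FA-/- cells, 256 between the preleukaemic groups, 2245 between leukaemic TgSpi1FA-/- and TgSpi1FA+/+ preleukaemic cells, 470 in model 2 and 2037 for the difference between the models, where it called 3 members. Without a filter on low counts, 4 genes were called between the preleukaemic groups and 279 for the difference between the models. The second table, an alternative added after seeing the data, gave 267 genes and 1 member called.

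With each library left out in turn, the same comparisons gave 414 to 2319, 1 to 16, 53 to 1911, 0 to 1 and 1 to 1359 genes called, and 1 to 4, 0 to 0, 1 to 3, 0 to 0 and 0 to 1 members. For the list of other NOTCH genes they gave 1 to 9, 0 to 0, 0 to 8, 0 to 0 and 0 to 7 called. Without L_28 in particular, 414 and 53 genes were called in the first and the third. Between leukaemic and preleukaemic TgSpi1FA-/- cells, log2 fold changes with a library left out ranged from -0.69 to 0.092 for Psen2, -0.37 to 0.042 for Ncstn and -0.27 to 0.040 for Psenen. Between the preleukaemic groups they ranged from -0.22 to 0.069 for Adam10, -0.24 to 0.62 for Psen2, -0.19 to 0.065 for Psenen, -0.077 to 0.13 for Rbpj and -0.066 to 0.098 for Maml1. Against TgSpi1FA+/+ preleukaemic cells they ranged from -0.30 to 0.25 for Psen2 and -0.19 to 0.23 for Ncstn. In model 2 they ranged from -0.56 to 0.42 for Psen2, -0.16 to 0.42 for Aph1a, -0.60 to 0.13 for Psenen, -0.63 to 0.21 for Rbpj and -0.69 to 1.26 for Maml2. The difference between the models ranged from -0.77 to 0.22 for Psen2, -0.27 to 0.47 for Psenen and -0.73 to 0.13 for Rbpj.

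Between the preleukaemic groups, Rbpj was at -0.006 with DESeq2's size factors and -0.0055 with its Wald test, and Maml1 at -0.018, -0.0177, -0.008 without a filter and -0.0097 with only the compared groups. Against TgSpi1FA+/+ preleukaemic cells, Ncstn was at 0.0158 with DESeq2's size factors, 0.0105 with its Wald test and 0.0058 with the filter of 1 CPM. The causes were not tested. Psenen had 28 to 46 counts per library in model 1, which limits the precision of its fold changes there, and 760 to 2129 in model 2. The cause of the low counts was not tested.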
